A study of Homo sapiens with 6 samples.

Results

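The genes described here are splicing factors and members of the SMN complex, measured in prostate cancer cells with and without a short hairpin RNA (shRNA) directed at PCAT1, a long non-coding RNA. They were taken by name from a table of transcripts: every entry whose gene name begins with SRSF, SF3A, SF3B, PRPF or GEMIN and a number, or with HNRNP or U2AF, together with TRA2A and TRA2B. The rule gave 233 of the 29091 listed transcripts and 65 of the 11848 listed genes. By family these were 30 transcripts of 10 SRSF genes, 8 of 2 TRA2 genes, 120 of 21 HNRNP genes, 22 of 9 SF3 genes, 11 of 4 U2AF genes, 27 of 13 PRPF genes and 15 of 6 GEMIN genes. In 17 of the 65 genes only 1 transcript was listed.

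All 6 samples were LNCaP-AI cells, an androgen-independent line that was derived from the human prostate cancer line LNCaP by long culture without androgen, so both groups share that history. The 3 shSCR samples were transfected with a scramble shRNA and the 3 shPCAT1 samples with the shRNA against PCAT1. RNA was sequenced as short single-end reads and given as FPKM, that is fragments scaled by transcript length and by mapped reads. Every listed transcript was typed as protein-coding and had a mean of at least 0.5 FPKM in its higher group. Gene sums and shares below therefore leave out transcripts of other types and rarer ones. The labels number the replicates but do not say that they were separate cultures, so a p-value reflects no more than how these samples scatter, which could be technical.

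Introns are removed from pre-mRNA by the spliceosome. The SMN complex, of which the GEMIN proteins are part, loads Sm proteins onto the small nuclear RNAs of the spliceosome; the SF3 and U2AF proteins recognise the branch point and the 3′ splice site; and many of the PRPF proteins belong to the U4/U6.U5 particle or to the PRPF19 complex. SR proteins (SRSF) and the TRA2 proteins mostly favour the use of the exons they bind, whereas hnRNP proteins often oppose it, and several of these genes regulate the splicing of their own transcripts.

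Exons of 3 members are shown first because the split of the gene between transcripts with and without them differed between the samples described below. Capitals mark the alternative segment and lower case the 20 bases on each side, written 5′ to 3′ on the strand of the gene, from the GRCh37 genome, with the extent of the printed run in front. The segments of HNRNPAB and HNRNPC hold 47 and 13 codons, and the TRA2B segment leaves a remainder of 2 bases when divided by 3.
TRA2B coding exon of 134 bases, chr3:185644369-185644542, minus strand: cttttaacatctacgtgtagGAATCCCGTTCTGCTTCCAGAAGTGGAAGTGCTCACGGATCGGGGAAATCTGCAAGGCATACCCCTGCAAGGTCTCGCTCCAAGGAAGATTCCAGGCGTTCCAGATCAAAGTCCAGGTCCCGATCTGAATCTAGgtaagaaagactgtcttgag
HNRNPAB coding exon of 141 bases, chr5:177637113-177637293, plus strand: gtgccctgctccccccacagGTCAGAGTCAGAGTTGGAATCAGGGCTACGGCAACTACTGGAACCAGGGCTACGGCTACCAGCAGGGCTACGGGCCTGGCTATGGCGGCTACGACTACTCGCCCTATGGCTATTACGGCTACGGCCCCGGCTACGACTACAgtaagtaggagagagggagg
HNRNPC coding stretch of 39 bases at the end of an exon, chr14:21699097-21699175, minus strand: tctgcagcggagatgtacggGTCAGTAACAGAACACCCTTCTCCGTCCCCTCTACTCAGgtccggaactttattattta

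The level of PCAT1 was not analysed here, and how far it was knocked down is therefore not known from these values. All 9 markers of LNCaP cells fixed for the purpose were listed, with a summed level of 1643 to 2084 FPKM in shSCR and 1327 to 1498 FPKM in shPCAT1, whereas 0 of 4 leukocyte, 1 of 4 fibroblast, 1 of 3 endothelial and 2 of 3 basal prostate markers were listed, with sums of at most 12.3 FPKM in any sample. The library of shSCR replicate 3 stood apart: its correlation with the other 5 across all genes was 0.809 to 0.845, against 0.910 to 0.946 among the other 5. It held the highest or the lowest level of the 6 samples in 45 of the 65 members (69.2%, against 71.2% of all genes tested), so results are also given without it. Its part in them was not tested. The depth of the libraries is unknown, and a listed 0 may be an estimate that failed.

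The members were abundant, with mean levels from 1.26 to 365 FPKM and a median of 37.1 FPKM, against a median of 9.92 FPKM over the 10825 genes tested. All 65 had the mean of 1 FPKM needed to be tested. When the FPKM of the transcripts of each gene were added, 0 of the 65 genes passed an adjusted p of 0.05 with limma in either direction; over all genes tested 0.333% passed as higher in shPCAT1 and 0.545% as lower. At an unadjusted p of 0.05, 11 members were higher and 2 lower, that is 16.9% higher where all genes gave 7.23% higher and 10.0% lower. The 11 include SF3B5, listed at 0 in all shSCR samples and in shPCAT1 replicate 1. It reached the filter only through the other shPCAT1 samples. The 3 samples of one group all lay above the other group in 18 members that were higher in shPCAT1 and 4 that were lower, against 14.8% and 17.7% of all genes. The log2 change was above 0 in 42 of 65 members, with a median of 0.12, where 45.8% of all genes were above 0 and the median was -0.05. Without shSCR replicate 3, 6 members were called higher (HNRNPDL, HNRNPU, HNRNPAB, PRPF3, GEMIN4 and TRA2B) and HNRNPH3 lower, with a background of 3.63% and 4.4%.

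**Figure D1:**
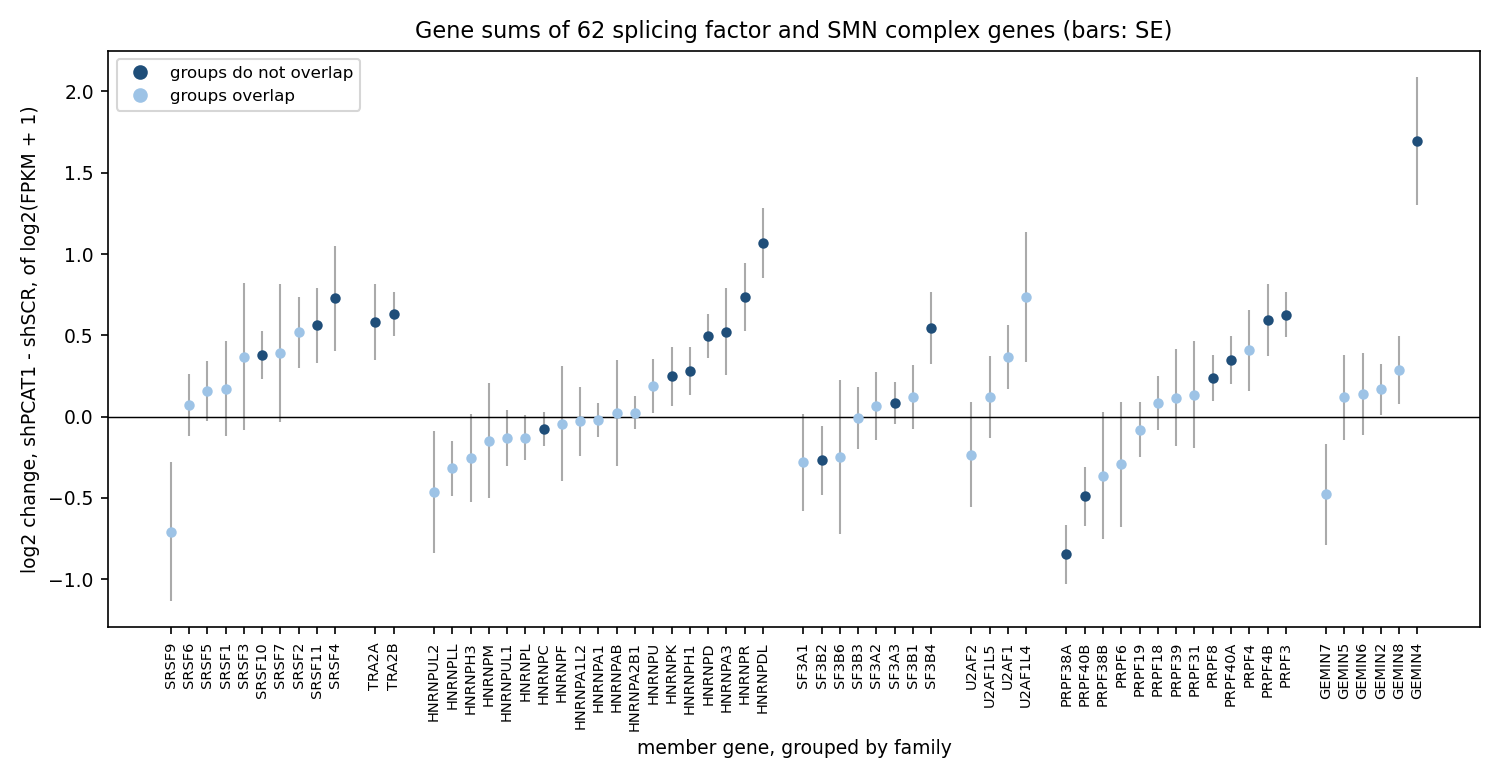
Log2 change of the gene sum between shPCAT1 and shSCR (y axis, difference of log2(FPKM + 1)) for 62 members grouped by family along the x axis; points are the estimates from 3 samples a group, bars their SE, and dark points genes whose groups do not overlap. HNRNPA0, HNRNPH2 and SF3B5, listed at or near 0 in some samples, are not drawn. GEMIN4 (1.70) and HNRNPDL (1.07) lie highest and PRPF38A (-0.85) lowest.

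Among the SR proteins, 0 of 10 genes were called, and 9 of 10 had a log2 change above 0 with a median of 0.37. With a correction for GC content 7 of 10 were above 0 and the median was 0.08. SRSF10, a splicing factor that acts as a repressor when dephosphorylated, had 15.5, 13.0 and 15.5 FPKM in shSCR and 19.6, 20.4 and 18.2 FPKM in shPCAT1. Every shPCAT1 sample was above every shSCR sample, with a log2 change of 0.38 (SE 0.15, limma adjusted p = 0.275), and with the GC correction the change was 0.03. SRSF11, an SR-related protein, had 38.4, 33.7 and 21.7 FPKM in shSCR and 44.8, 44.5 and 46.9 FPKM in shPCAT1, a change of 0.56 (SE 0.23, adjusted p = 0.290). The lowest shSCR value of SRSF11 was that of replicate 3, without which the change was 0.33. SRSF2, an activator of exons, had 33.8, 26.8 and 44.1 FPKM in shSCR and 43.6, 55.9 and 49.7 FPKM in shPCAT1, and the groups overlapped. SRSF9 had the highest mean of the family, at 163, 178 and 431 FPKM in shSCR and 165, 100 and 172 FPKM in shPCAT1. The value of 431 FPKM in shSCR replicate 3 stood above the other 5 samples.

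TRA2A and TRA2B, the vertebrate relatives of the fly gene transformer-2, were both higher in every shPCAT1 sample without passing the test. TRA2B (chr3:185633694-185655924, minus strand, hg19) had 27.6, 30.2 and 28.3 FPKM in shSCR and 46.0, 42.2 and 46.7 FPKM in shPCAT1. The log2 difference was 0.63 (SE 0.13, adjusted p = 0.106), and 0.62 (SE 0.08, adjusted p = 0.0285) without shSCR replicate 3. With the GC correction it was 0.44 (limma adjusted p = 0.186). TRA2A had 18.9, 32.3 and 30.6 FPKM in shSCR and 43.5, 38.4 and 38.98 FPKM in shPCAT1, with a change of 0.58 (SE 0.23, adjusted p = 0.280), or 0.35 without shSCR replicate 1. The GC correction gave 0.40 for TRA2A (limma adjusted p = 0.501).

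The higher FPKM sum of TRA2B came from 1 transcript, TRA2B-008, annotated as 976 bases long where TRA2B-001 has 4178. Because FPKM is scaled by length, the same reads add more to the sum on the shorter transcript. Whether TRA2B had more reads in shPCAT1 was not tested. TRA2B-008, whose annotated coding sequence is 564 bases long and lacks the exon printed above, had 2.53, 2.76 and 2.17 FPKM in shSCR and 18.5, 19.99 and 26.1 FPKM in shPCAT1. The groups were far apart, and the transcript rose by 2.68 (SE 0.23, limma adjusted p = 0.0317), or 8.66 times by the ratio of the group means. The other TRA2B transcripts together had 25.0, 27.4 and 26.1 FPKM in shSCR and 27.5, 22.2 and 20.6 FPKM in shPCAT1, where the groups overlap. TRA2B-001, the transcript with the exon and a coding sequence of 864 bases, had 84.2%, 82.7% and 87.7% of the gene's FPKM in shSCR and 52.4%, 45.4% and 36.3% in shPCAT1. TRA2B-008 had 9.18%, 9.15% and 7.67% in shSCR and 40.3%, 47.3% and 55.9% in shPCAT1. The protein encoded at the start of TRA2B is an arginine- and serine-rich domain, and the annotated coding sequence of TRA2B-008 is the shorter of the pair. The call for TRA2B-008 held without shSCR replicate 3 (adjusted p = 0.0359) and was lost when any other sample was left out, with adjusted p up to 0.304.

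Of the 196 member transcripts with a mean of at least 1 FPKM (37 others were below it), 2 were called higher and 1 lower, where 0.0586% and 0.0391% of the 20474 transcripts tested were called. They were TRA2B-008, GEMIN4-001 and HNRNPC-002. GEMIN4-001 reached the mean of 1 FPKM only through the shPCAT1 samples, where it was high, so its call is no separate support. At an unadjusted p of 0.05, 22 members were higher and 6 lower, against 4.53% and 4.92% of all transcripts. Without shSCR replicate 3, 4 member transcripts were called (0.42% of all), the same 3 and HNRNPA1-001. Of the 174 isoform shares tested in 45 genes, 0 were called with limma on the log2 odds of the share (background 0.0132%). That fit recovered few of the changes planted in simulated data. There were 8 higher and 8 lower shares at an unadjusted p of 0.05 (2.83% and 2.29% of all shares). The diffSplice function of limma compares the log2 change of each transcript with that of the other transcripts of its gene. It called 3 member transcripts (background 0.2%), again TRA2B-008, GEMIN4-001 and HNRNPC-002. Since it reuses the values of the transcript fit, these calls are not separate from those above.

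**Figure D2:**
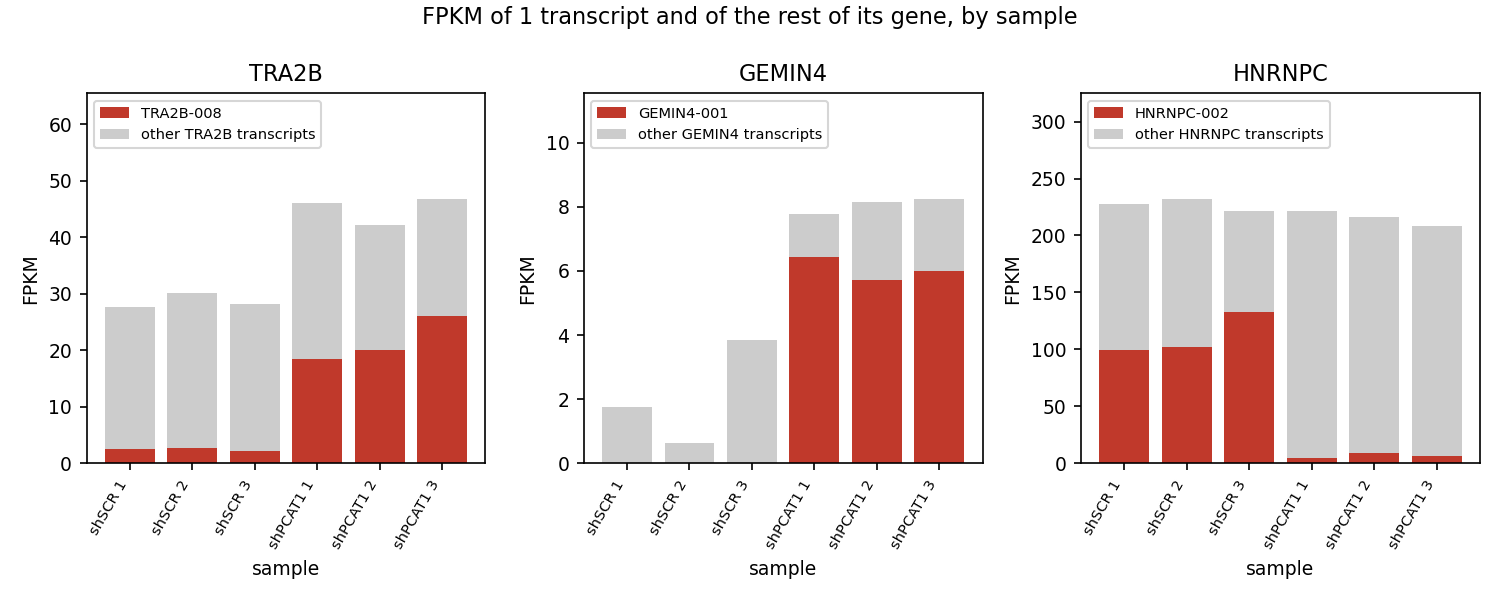
FPKM of 1 transcript (red) stacked with the other transcripts of its gene (grey) in each of the 6 samples (x axis) for TRA2B, GEMIN4 and HNRNPC; the y axes are in FPKM and start at 0. TRA2B-008 is 2.17 to 2.76 FPKM in shSCR and 18.5 to 26.1 FPKM in shPCAT1, GEMIN4-001 is at most 0.00358 FPKM in shSCR and 5.73 to 6.45 FPKM in shPCAT1, and HNRNPC-002 falls while the height of the HNRNPC bar stays between 209 and 232 FPKM.

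In the hnRNP family, 0 of 21 gene sums were called, and 10 of 21 had a log2 change above 0, with a median of -0.02. With upper quartile scaling 14 were above 0 and the median was 0.07, while the median of all genes moved from -0.05 to 0.03. HNRNPDL, a relative of HNRNPD that binds AU-rich RNA, had 56.9, 58.3 and 37.4 FPKM in shSCR and 111, 113 and 94.0 FPKM in shPCAT1. The groups did not overlap, and the change was 1.07 (SE 0.21, limma adjusted p = 0.0975); without shSCR replicate 3 it was 0.87 (SE 0.10, adjusted p = 0.0244). Its transcript HNRNPDL-006 had 19.5, 19.998 and 14.9 FPKM in shSCR and 48.6, 75.7 and 43.96 FPKM in shPCAT1 (1.55, adjusted p = 0.194). HNRNPDL-006 is annotated as 1291 bases long and HNRNPDL-001 as 4372. As for TRA2B, whether the gene had more reads in shPCAT1 was not tested.

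HNRNPD, also known as AUF1 and a regulator of mRNA decay, had 130, 109 and 116 FPKM in shSCR and 183, 159 and 160 FPKM in shPCAT1, a change of 0.50 (SE 0.14, adjusted p = 0.166). HNRNPR, a relative of the RNA-binding protein SYNCRIP, had 47.9, 36.2 and 29.0 FPKM in shSCR and 64.3, 63.6 and 58.6 FPKM in shPCAT1, a change of 0.74 (SE 0.21, adjusted p = 0.180). In both genes every shPCAT1 sample was above every shSCR sample. Within HNRNPR the transcripts did not move alike: HNRNPR-001 had 5.81, 5.06 and 4.24 FPKM in shSCR and 13.4, 13.8 and 19.3 FPKM in shPCAT1. HNRNPR-004 had 6.60, 5.88 and 6.40 FPKM in shSCR and 4.01, 3.97 and 2.85 FPKM in shPCAT1. Neither transcript passed the test (adjusted p = 0.185 and 0.494), and the groups overlapped in neither. HNRNPH1-034, of the G-rich RNA binder HNRNPH1, had 1.65, 4.02 and 1.29 FPKM in shSCR and 7.62, 5.25 and 8.04 FPKM in shPCAT1 (1.33, adjusted p = 0.425).

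The most abundant hnRNP genes differed little in their sums. HNRNPA2B1, which binds pre-mRNA and RNA transport signals, had 356, 372 and 357 FPKM in shSCR and 377, 367 and 360 FPKM in shPCAT1. HNRNPA1, a repressor of exons, had 295, 304 and 280 FPKM in shSCR and 290, 292 and 286 FPKM in shPCAT1, and HNRNPA1L2, listed as 1 transcript on chromosome 13 and a retrocopy of HNRNPA1 whose reads may be hard to separate from it, had 9.17 to 14.5 FPKM in shSCR and 10.3 to 10.6 FPKM in shPCAT1. The changes were 0.02 and -0.02 for HNRNPA2B1 and HNRNPA1 (SE 0.10 each).

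HNRNPC, which binds uridine tracts in pre-mRNA, was the gene with the largest fall of a single transcript among the members tested. Its sum was 228, 232 and 221 FPKM in shSCR and 221, 216 and 209 FPKM in shPCAT1, a change of -0.08 (SE 0.11, adjusted p = 0.721). HNRNPC-002 (chr14:21679096-21737601, minus strand, coding length 879 bases) had 99.2, 102 and 133 FPKM in shSCR and 4.72, 9.14 and 6.49 FPKM in shPCAT1. Every shPCAT1 sample was below every shSCR sample, and the log2 change was -3.88 (SE 0.27, adjusted p = 0.0239). Its share of the gene was 43.6%, 44.01% and 60.1% in shSCR and 2.13%, 4.23% and 3.11% in shPCAT1. The other HNRNPC transcripts together had 128, 130 and 88.5 FPKM in shSCR and 217, 207 and 202 FPKM in shPCAT1. The call held without shSCR replicate 3 (adjusted p = 0.0359) and was lost without any other sample, with adjusted p up to 0.137.

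The split among the remaining HNRNPC transcripts was not the same in the 3 shPCAT1 samples. HNRNPC-014 had 9.38, 11.5 and 2.14 FPKM in shSCR and 58.9, 24.2 and 23.6 FPKM in shPCAT1, and HNRNPC-011 had 7.26, 6.83 and 3.42 FPKM in shSCR and 57.8, 18.1 and 16.8 FPKM in shPCAT1. HNRNPC-005, the most abundant of the rest, had 38.6, 39.9 and 17.1 FPKM in shSCR and 9.34, 82.4 and 76.7 FPKM in shPCAT1, so that replicate 1 lay below all shSCR samples and replicates 2 and 3 above them. HNRNPC-005, HNRNPC-014 and HNRNPC-011 are annotated as 1784, 1790 and 1658 bases long, and HNRNPC-002 as 3165. A similar FPKM sum of HNRNPC in both groups therefore does not show a similar number of reads, which was not tested. The stretch of 39 bases printed above was in transcripts with 35.5%, 36.2% and 30.5% of the FPKM that could be assigned with or without it in shSCR, and 12.6%, 63.1% and 65.7% in shPCAT1. HNRNPC is known to make a shorter and a longer protein that differ by a short insert. The longer form cannot be called higher or lower in shPCAT1 as a group from these values.

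The FPKM of the transcripts that hold and that lack a given exon were also summed and compared, an approach chosen after the data were seen. Of 110 member exon segments tested in 41 genes, 0 were called with limma (background 0.00861%), 10 had an unadjusted p of 0.05 or less (5.25% of all segments), and 30 had groups that did not overlap (14.5% of all). Segments of the same gene reuse its transcripts, so these are not counts of independent changes. HNRNPC, GEMIN4 and PRPF31 each gave more than a single one of the 10. The TRA2B exon of 134 bases was in 90.2%, 90.03% and 92.0% of the FPKM in shSCR and 56.5%, 49.0% and 39.4% in shPCAT1, a change of -3.16 in log2 odds (SE 0.47, adjusted p = 0.517). This comparison sets TRA2B-001 against TRA2B-008 alone, the same transcripts as above, and leaves out TRA2B-014 and TRA2B-016. The HNRNPAB exon of 141 bases was in 70.1%, 74.5% and 92.1% in shSCR and 55.9%, 56.6% and 56.3% in shPCAT1 (-1.72, SE 0.68, adjusted p = 0.793). The groups did not overlap in either case.

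**Figure D3:**
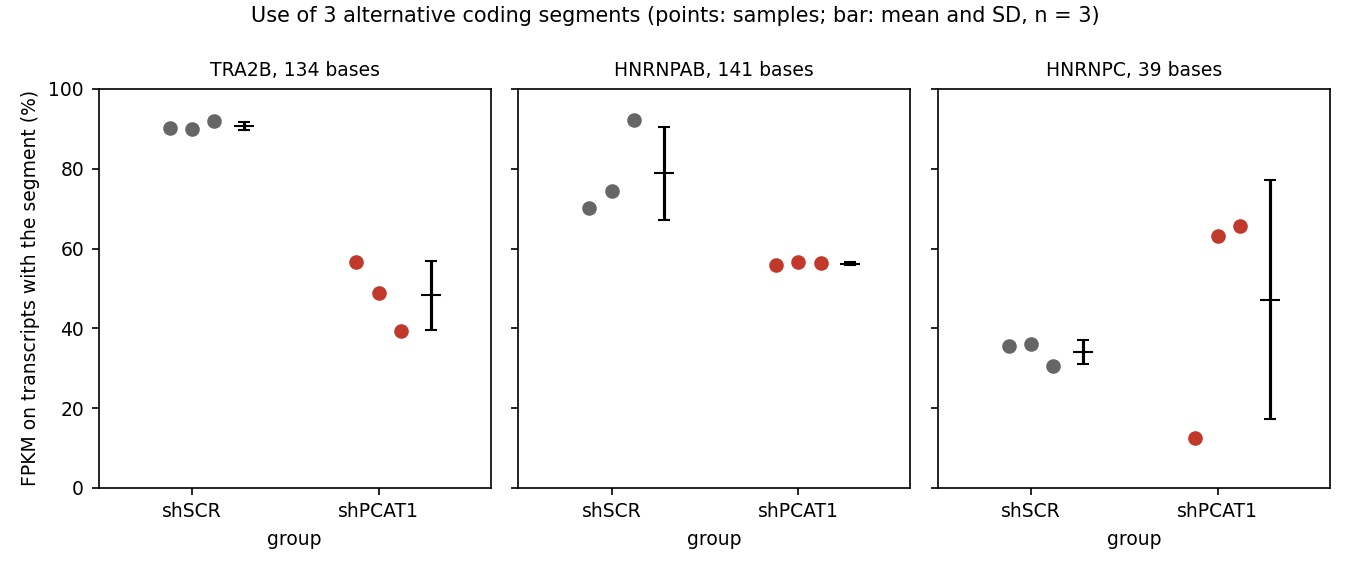
Percent of FPKM on transcripts with the alternative segment (y axis, 0 to 100%) in each sample of shSCR and shPCAT1 for 3 coding segments; points are samples and the bar beside them the mean and SD (n = 3). The TRA2B and HNRNPAB groups do not overlap, whereas in HNRNPC the shPCAT1 replicates lie at 12.6%, 63.1% and 65.7%.

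Of the single transcripts of HNRNPA1 and HNRNPAB, 0 were called with all 6 samples. HNRNPA1-002 had 135, 194 and 195 FPKM in shSCR and 102, 89.6 and 90.9 FPKM in shPCAT1 (-0.87, adjusted p = 0.345). HNRNPA1-001 had 40.7, 40.2 and 2.43 FPKM in shSCR and 133, 130 and 129 FPKM in shPCAT1 (2.86, adjusted p = 0.485). The groups of both transcripts did not overlap, and without shSCR replicate 3, the lowest sample for HNRNPA1-001, that transcript was called higher (1.66, adjusted p = 0.0160). HNRNPAB, a binder of single-stranded nucleic acids, had a sum of 65.7, 73.3 and 152 FPKM in shSCR and 93.7, 90.04 and 90.4 FPKM in shPCAT1. Its transcript HNRNPAB-003, which lacks the exon of 141 bases, had 10.7, 9.28 and 6.35 FPKM in shSCR and 24.5, 23.1 and 22.9 FPKM in shPCAT1 (1.35, adjusted p = 0.194). HNRNPAB-004, which also lacks it, had 8.70, 9.24 and 5.59 FPKM in shSCR and 16.5, 15.3 and 15.8 FPKM in shPCAT1 (0.96, adjusted p = 0.377). HNRNPAB-001, which holds it, had 33.7, 40.3 and 112 FPKM in shSCR and 33.1, 32.6 and 32.2 FPKM in shPCAT1, and the value of shSCR replicate 3 stood above the other 5. The change of the HNRNPAB sum was 0.02 (adjusted p = 0.980) with all 6 samples and 0.39 (adjusted p = 0.0479) without shSCR replicate 3.

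Of the SF3 genes, which encode subunits of the U2 particle, 0 of 9 were called and 5 had a log2 change above 0. SF3B4, a subunit that contacts RNA near the branch point, had 36.4, 38.4 and 23.0 FPKM in shSCR and 45.4, 47.7 and 47.6 FPKM in shPCAT1, with no overlap and a change of 0.54 (SE 0.22, adjusted p = 0.287), or 0.32 without shSCR replicate 3. SF3B2, another subunit of SF3B, had the highest mean of this family, at 113, 113 and 182 FPKM in shSCR and 111, 108 and 110 FPKM in shPCAT1 (-0.27, adjusted p = 0.530), and the change was -0.044 without shSCR replicate 3 and -0.018 with the GC correction. Of the 4 U2AF genes, 0 were called. U2AF1, the small subunit that contacts the AG of the 3′ splice site, had 26.2, 30.9 and 40.5 FPKM in shSCR and 38.0, 44.7 and 42.3 FPKM in shPCAT1. U2AF1 and U2AF1L5 are listed over the same region of chromosome 21, so the division of reads between them is uncertain. U2AF2, the large subunit, had 79.8, 87.0 and 177 FPKM in shSCR and 82.2, 104 and 88.3 FPKM in shPCAT1, and the groups overlapped.

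Of the 13 PRPF genes, 0 were called, 8 had a log2 change above 0, and 2 were higher and 2 lower at an unadjusted p of 0.05, where all genes gave 7.23% and 10.0%. PRPF38A, needed for activation of the spliceosome, had 11.95, 13.9 and 15.3 FPKM in shSCR and 6.77, 8.50 and 6.32 FPKM in shPCAT1. It was below shSCR in all 3 samples, with a change of -0.85 (SE 0.18, adjusted p = 0.106), and -0.77 (adjusted p = 0.0567) without shSCR replicate 3. PRPF3, a protein of the U4/U6 particle, had 13.6, 13.1 and 11.6 FPKM in shSCR and 21.0, 19.3 and 20.3 FPKM in shPCAT1. It was above shSCR in all 3 samples, with a change of 0.63 (SE 0.14, adjusted p = 0.122), and 0.57 (adjusted p = 0.0270) without shSCR replicate 3. PRPF40B, a relative of a yeast U1 protein, had 9.09, 10.1 and 13.3 FPKM in shSCR and 7.62, 6.93 and 7.49 FPKM in shPCAT1 (-0.49, SE 0.18, adjusted p = 0.258), and the change was -0.16 with the GC correction. PRPF19, a ubiquitin ligase and the core of the complex named after it, had 83.1, 88.1 and 104 FPKM in shSCR and 73.8, 91.5 and 95.7 FPKM in shPCAT1, and the groups overlapped. PRPF31-006, 1 of the transcripts of the U4 protein gene PRPF31, had 0.887, 0.524 and 0.904 FPKM in shSCR and 2.72, 3.599 and 1.83 FPKM in shPCAT1 (1.05, adjusted p = 0.422).

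Of the 6 GEMIN genes, 0 were called by their sum, and 5 of 6 had a log2 change above 0, with a median of 0.15. GEMIN4, a subunit of the SMN complex (chr17:647654-655501, minus strand) had 1.75, 0.639 and 3.84 FPKM in shSCR and 7.78, 8.15 and 8.24 FPKM in shPCAT1. Every shPCAT1 sample was above every shSCR sample, with a change of 1.70 (SE 0.39, adjusted p = 0.130), 2.09 (SE 0.25, adjusted p = 0.0246) without shSCR replicate 3, and 1.97 (adjusted p = 0.0482) with the GC correction. GEMIN4-001, the transcript with the longest annotated coding sequence (3174 bases, 2 exons), was listed at 0, 0.00358 and 0 FPKM in shSCR and had 6.45, 5.73 and 5.99 FPKM in shPCAT1. It was called higher (2.82 on the log2(FPKM + 1) scale, SE 0.24, adjusted p = 0.0303), a value that depends on the pseudocount because shSCR is at or near 0. The transcript also reached the filter only through the shPCAT1 samples. It held 82.9%, 70.3% and 72.7% of the gene in shPCAT1. GEMIN4-006, an annotated transcript with a coding length of 211 bases, had 53.5%, 51.0% and 73.6% of the gene in shSCR and 5.75%, 13.0% and 7.36% in shPCAT1, at 0.938, 0.326 and 2.82 FPKM against 0.447, 1.06 and 0.607 FPKM. GEMIN4-007 had 46.5%, 48.5% and 26.4% of the gene in shSCR and 11.4%, 16.7% and 19.9% in shPCAT1. The call for GEMIN4-001 was lost with a pseudocount of 0.1 (adjusted p = 0.0972) and without any 1 sample other than shSCR replicate 3, with adjusted p up to 0.304.

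The other GEMIN genes had log2 changes of 0.17 (GEMIN2), 0.29 (GEMIN8), 0.14 (GEMIN6), 0.12 (GEMIN5) and -0.48 (GEMIN7), and whether they differ from GEMIN4 was not tested. GEMIN2, which holds the Sm proteins in the complex, had 13.1, 13.9 and 16.7 FPKM in shSCR and 15.5, 16.2 and 17.6 FPKM in shPCAT1. GEMIN8, a subunit that joins other GEMIN proteins to SMN, had 4.56, 4.81 and 2.98 FPKM in shSCR and 4.48, 5.42 and 5.63 FPKM in shPCAT1. GEMIN7, a small subunit, had 4.001, 4.46 and 5.17 FPKM in shSCR and 4.01, 1.501 and 3.96 FPKM in shPCAT1. The groups overlapped in all 5 genes. Without shSCR replicate 3 GEMIN8 was 0.12, without shPCAT1 replicate 2 GEMIN7 was -0.15, and with the GC correction GEMIN2 was -0.058.

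Of the 65 members, 4 were listed below 0.01 FPKM in 1 sample while another was at 1 FPKM or more, where 5.27% of all genes were. HNRNPA0, a gene of 1 exon, was listed at 0, 0 and 60.8 FPKM in shSCR and at 0, 38.5 and 38.99 FPKM in shPCAT1. HNRNPH2, a binder of G-rich RNA, had 52.8, 0.00216 and 77.0 FPKM in shSCR and 58.1, 0 and 53.9 FPKM in shPCAT1. SF3B5, a small subunit of SF3B and also of 1 exon, was listed at 0 in all shSCR samples and at 0, 91.1 and 87.8 FPKM in shPCAT1. A sample at or near 0 was thus found in both groups in all 3 genes, and the cause was not tested. U2AF1L4 was low throughout, at 0.815, 1.39 and 0 FPKM in shSCR and 2.09, 2.36 and 0.930 FPKM in shPCAT1.

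**Figure D4:**
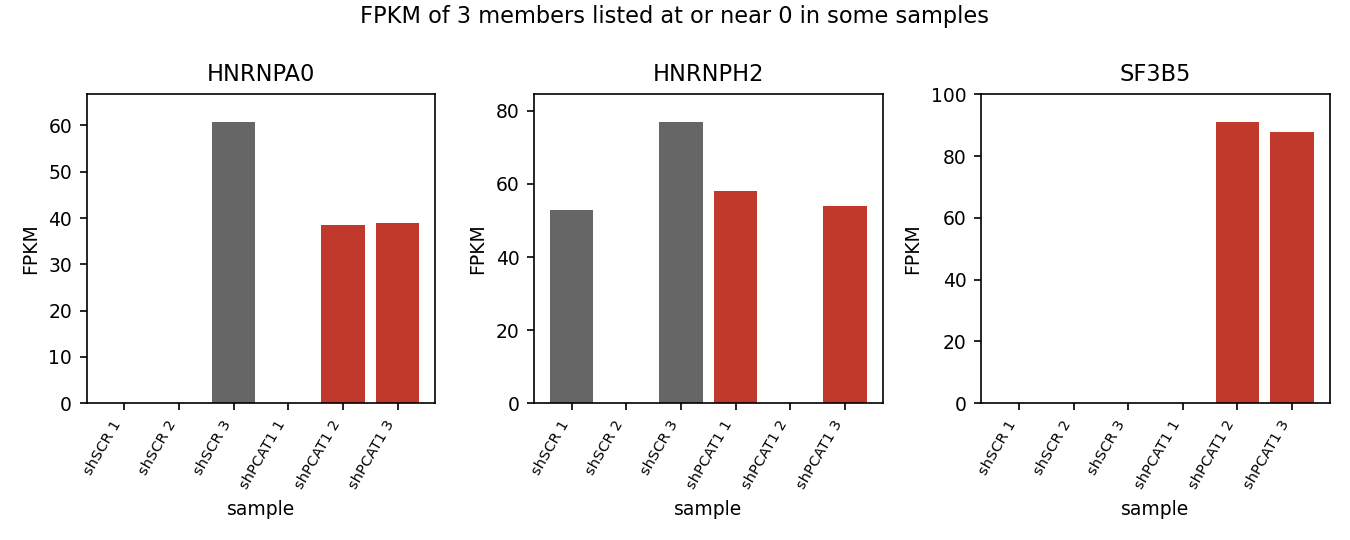
FPKM (y axis, from 0) of HNRNPA0, HNRNPH2 and SF3B5 in each of the 6 samples (x axis; grey shSCR, red shPCAT1). Samples of 1 group hold both a 0 and a high level, as in HNRNPA0 with 0, 38.5 and 38.99 FPKM in shPCAT1.

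The log2 change fell with the GC content of the gene across all genes tested (Spearman rho = -0.53 over 10596 genes) and less so across the members (rho = -0.15 over 65). These are correlations across genes, which are not independent. Without shSCR replicate 3 the values were -0.25 over 10596 genes and 0.01 over 65 members. The members had a median GC content of 45.7%, and the genes tested 48.5%. With a correction for GC content, 1 member gene was called (GEMIN4, where 1.26% of all genes were) and the median change was 0.12 for the members and 0.02 for all genes. After the correction rho was -0.00101 across all genes and 0.37 across the members, so that a GC trend was present among the members in the corrected values.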

How the data were processed

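Poly(A) RNA of 6 samples was sequenced. The deposited FPKM values were computed per transcript by the authors with Ballgown. HISAT2 2.0.4 and hg19 are given in the submitters' processing notes, but another aligner and GRCh37 models in the study's methods, and which was used is not settled. The deposited log2 group means and log2 fold change, the linear fold ratio, and the p-value and q-value columns are the authors' own comparison and were not used. No counts were used, so depth is unknown.

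The members and gene lists were chosen with earlier results of these data known. FPKM were summed by gene name, so a shift of reads to a shorter transcript raises the sum without more reads. Features with a mean of at least 1 FPKM were tested on log2(FPKM + 1), a pseudocount of 1 that understates changes of low features, with limma 3.58.1 in R 4.3.3 (trend and robust), 3 shPCAT1 against 3 shSCR, and called at a Benjamini-Hochberg adjusted p of 0.05 over all features. Isoform shares were tested as log2((FPKM + 0.5)/(rest + 0.5)) in genes with a mean sum of at least 5 FPKM, for transcripts at no more than 99% of their gene. Exon structures came from GENCODE v44 mapped to GRCh37, in which 225 of 233 member transcripts were matched by ID and 145 had the same ends. TRA2B-008 had the same ends, but TRA2B-001, GEMIN4-001 and HNRNPC-002 did not, so their lengths and exons are those of the reference. Segments needed a mean share of 5% to 95% and a sum of 5 FPKM. Named genes were, by family, the 3 with the smallest p and the most abundant, the 12 transcripts with the smallest p in the transcript fit and the 12 in the share fit, and members near 0 in some samples. Named beyond this rule, after their values were seen, were HNRNPA1, HNRNPA1L2, HNRNPU, HNRNPH3, U2AF1L5, GEMIN5, GEMIN6, TRA2B-014, TRA2B-016 and HNRNPC-005. The use of 3 of the 110 segments is given, chosen after their values were seen, and that of others is not reported here. The fits were tested on simulated data, in which the gene and transcript fits also missed most of the smaller planted changes. Alternatives comprised the replicate number as a block, a GC correction (a loess curve of each sample on the GC content of the reference transcripts, removed from its log2 values), leaving out each sample in turn, diffSplice, quantile or upper quartile scaling, filters of 5 FPKM or none, a pseudocount of 0.1 and a fit without trend or robust estimation.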

Additional observations from a re-analysis of the deposited data

How the results depend on the processing

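Same-numbered samples did not deviate together from their group means: the correlations across genes were -0.0238, -0.0142 and 0.0209, none over 0.1. Whether they were prepared in pairs cannot be told from these values or the labels. With the replicate block 0 member genes, 0 transcripts and 0 shares were called, and 0 transcripts with the GC correction and the block, where 3 were called without it. Leaving out 1 sample gave 0 to 7 called member genes, 0 to 4 transcripts and 0 to 0 shares. For genes, the GC correction gave 1 (GEMIN4) and the GC correction without shSCR replicate 3 gave 9, where 344 higher and 320 lower of all 10596 genes were called. The 1 gene called without shPCAT1 replicate 1 was SF3B5, and the 1 transcript was that of SF3B5, listed at 0 in that replicate. diffSplice, run on the transcript fit, called 3 transcripts, whereas summing by exon segment, chosen after seeing the data, gave 0 with and without shSCR replicate 3. The median change of the member genes ranged from 0.04 (without shSCR replicate 1) to 0.24. Of 788 alternative values for 50 named features, 734 kept direction and call, 22 lost a call, 11 gained one and 21 changed direction, in 6 features that were not called (smallest adjusted p = 0.530). With the GC correction, and with the block added to it, GEMIN2 was -0.058, HNRNPA2B1 -0.21, PRPF19 0.20 and U2AF2 0.17. With the GC correction without shSCR replicate 3, HNRNPA2B1 was -0.085, PRPF19 0.14, SF3B2 0.072, U2AF2 0.28 and HNRNPH2 0.96. Quantile normalization gave 0.051 for PRPF19, and upper quartile scaling 0.0092. With 1 sample left out, PRPF19 ranged from -0.15 to 0.033 (above 0 when the sample was shSCR replicate 3 or shPCAT1 replicate 1), U2AF2 from -0.45 to 0.13 (above 0 for shSCR replicate 3) and HNRNPH2 from -2.13 to 1.82 (above 0 for shSCR replicates 1 and 3 and shPCAT1 replicate 2). The causes were not tested. Transcript values rest on the authors' division of short reads among overlapping transcripts, and with 3 samples a group and no known depth, a missed call does not show that levels were equal.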

Other observations

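Splicing genes outside these families were counted from lists drawn up by role. The lists held 113 names, some of them aliases of the same gene, and 109 genes were tested. With limma 0 were called, with 14 higher and 2 lower at an unadjusted p of 0.05, where all genes gave 7.23% higher and 10.0% lower. Without shSCR replicate 3, 6 were called higher (SNRPB2, CCAR1, PNN, ACIN1, CDC5L and RBM8A) and 0 lower, where 3.63% and 4.4% of all genes were. The genes given with values below are the 2 with the smallest p in each list. They do not stand for the rest of their lists. CDC5L, a partner of PRPF19 in its spliceosomal complex, had 5.28, 5.61 and 5.26 FPKM in shSCR and 10.1, 9.77 and 9.69 FPKM in shPCAT1, a change of 0.77 (SE 0.14, adjusted p = 0.0778). Every shPCAT1 sample was above every shSCR sample. CLK1, a kinase of SR proteins, had 2.45, 1.38 and 3.65 FPKM in shSCR and 4.50, 6.12 and 6.86 FPKM in shPCAT1 (1.005, SE 0.30, adjusted p = 0.191). DHX15, the helicase that takes the spliceosome apart, had 52.2, 56.2 and 50.8 FPKM in shSCR and 68.3, 73.7 and 76.5 FPKM in shPCAT1 (0.45, SE 0.13, adjusted p = 0.187). DDX39B, a helicase of early spliceosome assembly and mRNA export, had 48.7, 54.6 and 40.6 FPKM in shSCR and 19.9, 38.6 and 23.1 FPKM in shPCAT1 (-0.84, SE 0.28, adjusted p = 0.223). In CLK1, DHX15 and DDX39B too the groups did not overlap. Among all genes tested, 14.8% were higher and 17.7% lower without overlap, and these genes were picked by p. With the GC correction the changes of CDC5L, CLK1, DHX15 and DDX39B were 0.49, 0.74, 0.32 and -0.71. The log2 change was 0.82 in PHAX, an export adaptor of small nuclear RNAs, -0.39 in COPRS, a cofactor of the methylase PRMT5, 0.60 in SNRPD1 and 0.63 in SNRPB2, proteins of the small nuclear particles, 0.48 in the SR protein kinase SRPK1, 0.81 in CCAR1, 0.40 in PNN and 0.39 in UPF2, a factor of nonsense-mediated decay. None of these 8 passed the test with all 6 samples. After the GC correction their changes were 0.66, -0.15, 0.39, 0.31, 0.30, 0.58, 0.19 and 0.21, in the same order.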
